A study of Mus musculus with 6 samples.

Results

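The genes described here encode the Runx transcription factors, Runx1, Runx2 and Runx3, and their shared partner Cbfb, measured by RNA-seq in 6 libraries of activated mouse CD4 T cells. They were taken by symbol, with case ignored, which found 12 of the 29868 transcripts in the deposited table. A further 5 rows carried no symbol but an accession of Runx2, so the 4 genes had 17 transcripts in all, out of 22623 genes. The family was selected on earlier results for the FPKM differences between same-numbered replicates of the 2 vectors, although a gene entered it by symbol alone. These differences are therefore given as a description.

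All 6 libraries came from naive CD4+ CD44lo CD62L+ CD25neg cells of wild-type C57/BL6 mice, sorted from spleen and lymph node. The cells were activated on plates coated with antibodies to CD3 and CD28, with IL-4 and IFN-gamma blocked by antibodies, and were infected with a MigR1 retrovirus after 36 h, although a second label puts the stimulation at 3 days. In 3 libraries, the empty vector group, the virus carried only its GFP marker, and in the other 3, the Blimp-1 group, it also carried the cDNA of Blimp-1, the repressor encoded by Prdm1. GFP+ cells were sorted 2 days later, so both groups had been activated, infected and sorted in the same way, and the Blimp-1 message came from a viral promoter in addition to the cells' own gene. The animals' age is not given in the labels. Prdm1 was at 0.996, 2.03 and 1.38 FPKM in empty vector replicates 1, 2 and 3 and at 9.91, 12.8 and 9.45 FPKM in Blimp-1 replicates 1, 2 and 3. FPKM scales the fragments of a transcript to its length and to the size of the library, so levels of different genes can be compared, while the RNA content of a cell is not measured. In such bulk samples, fewer cells of a type and less RNA per cell cannot be told apart.

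Runx proteins bind DNA through a conserved Runt domain, and Cbfb encodes the beta subunit, which does not bind DNA itself but strengthens the binding of each Runx protein and protects it from degradation. In the T cell lineage Runx1 acts from early thymocytes onward, while Runx3 is known for silencing Cd4 in CD8 T cells and for supporting Ifng and repressing Il4 in Th1 cells. Runx2 is best known as the master regulator of bone formation and is less studied in T cells. Runx genes are transcribed from a distal and a proximal promoter, and transcripts from these promoters differ in the first amino acids of the protein.

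The windows around the first RefSeq start sites of the 3 Runx genes shared a word of 18 bases that holds 2 copies of the Runx motif. It is the longest run of bases common to these 3 windows and was picked after the sequences were seen. Its presence in all 3 therefore follows from how it was chosen, and its rarity elsewhere is a description. The stretches of 30 bases below are from RefSeq on build GRCm38.p6, written 5′ to 3′ on the strand of the gene, with the shared word in capitals. The deposited values were made on build mm9 and carry no coordinates.
Runx1, distal start, chr16:92826025-92826054, minus strand: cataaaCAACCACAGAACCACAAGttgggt
Runx2, first start, chr17:44814583-44814612, minus strand: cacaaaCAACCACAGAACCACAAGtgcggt
Runx3, distal start, chr4:135120503-135120532, plus strand: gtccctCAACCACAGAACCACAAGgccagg
The word began 27 bases after the start of Runx1 and 22 bases after that of Runx2, within the annotated transcript, and 136 bases before that of Runx3. Of 32851 windows from 250 bases before to 50 bases after a RefSeq start, 4 held it on either strand (0.0122%). Besides the 3 Runx windows this was the window of Gm16225, a long noncoding gene that starts beside Runx3 on the opposite strand, so it is the same site read from the other side.

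The Runx motif searched was TGTGGT on both strands, and its reverse complement ACCACA occurs in 2 copies within the shared word. The distal Runx1 and Runx3 windows held 2 copies each, all of them within the word, and the Runx2 window held 3. In all windows together, 16.8% held at least 1 copy and 1.81% held 2 or more. The copies within the word are the same bases as the shared word and are not a second result. None was found in the proximal windows of Runx1 and Runx3 or in that of Cbfb. The core of the Blimp-1 motif, searched as GTGAAAG on both strands, was in none of the 6 windows of the 4 genes and in 4.24% of all windows. The only Runx2 window lies at the first start. Starts about 78 kb further in, which made up 63.5% to 99.7% of Runx2 FPKM in the 6 libraries, were not searched. These matches are letters in a window and were not tested for binding.

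The depth estimated from the values ranged between 17.0 and 38.0 M reads for the empty vector and between 33.4 and 46.0 M for Blimp-1. In replicates 1, 2 and 3 the Blimp-1 library was the deeper, at 42.3 against 18.1, 46.0 against 38.0 and 33.4 against 17.0 M. Depth thus differed along with the vector in each pair, and its part in the differences was not tested. Empty vector replicate 3 had the lowest depth and stood farthest out on the first principal component, which held 52.8% of the variance (-33.7, against -12.6 to 22.7 in the other libraries). The differences of Runx2 and Runx3 are given with and without it.

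Runx3 was the most abundant Runx gene in each library. It was at 41.8, 46.3 and 29.1 FPKM in empty vector replicates 1, 2 and 3 and at 47.8, 49.6 and 31.5 FPKM in Blimp-1 replicates 1, 2 and 3. Both replicate 3 libraries were lowest, and the vectors overlapped. Cbfb was at 34.0, 38.4 and 40.9 FPKM in the empty vector group and at 35.2, 41.4 and 39.8 FPKM with Blimp-1. Its libraries lay close together and the vectors overlapped.

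Runx1 was at 11.6, 13.5 and 13.0 FPKM in empty vector replicates 1, 2 and 3 and at 13.0, 12.4 and 13.7 FPKM in Blimp-1 replicates 1, 2 and 3. It had the narrowest range of the 4 genes in FPKM. Runx2 was at 8.95, 7.36 and 3.50 FPKM in the empty vector group and at 14.3, 10.5 and 6.47 FPKM with Blimp-1. In both vectors replicate 1 was the highest and replicate 3 the lowest, and the vectors overlapped.

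**Figure D1:**
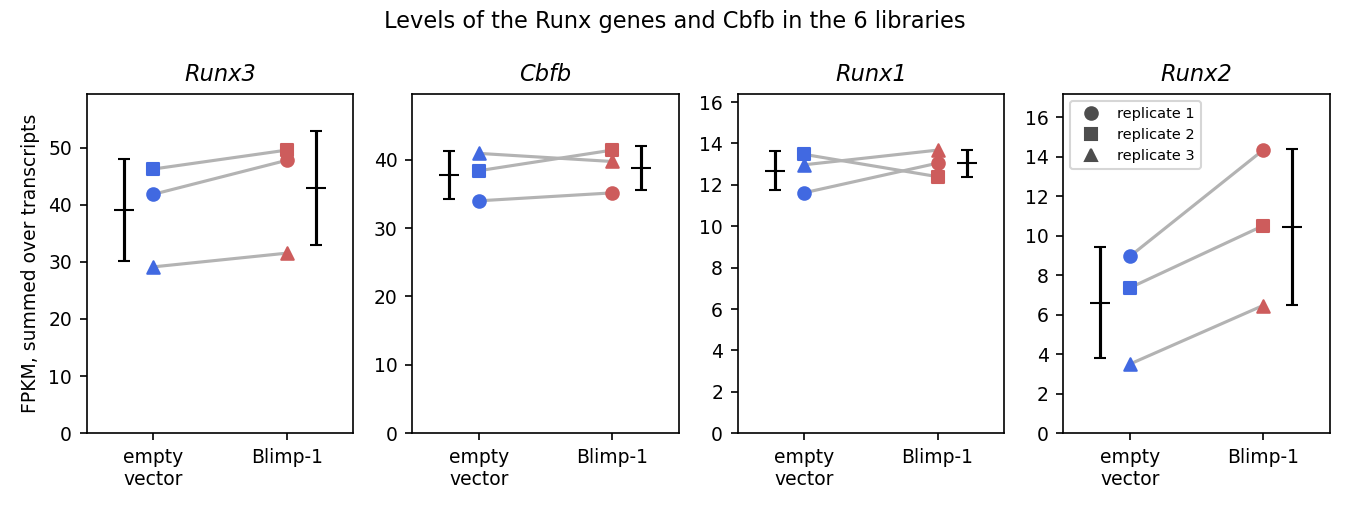
FPKM of Runx3, Cbfb, Runx1 and Runx2 (vertical axes, from 0, with a scale for each gene) in empty vector and Blimp-1 libraries, with same-numbered replicates joined by lines and the mean ± SD (n = 3) beside them. The lines of Runx2 and Runx3 slope upward in 3 of 3 pairs, while those of Runx1 and Cbfb cross.

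By mean level the order was Runx3, Cbfb, Runx1 and Runx2 in both vectors. With the empty vector the means were 39.1 ± 8.90 FPKM for Runx3, 37.8 ± 3.51 for Cbfb, 12.7 ± 0.959 for Runx1 and 6.60 ± 2.81 for Runx2 (SD, n = 3). With Blimp-1 they were 43.0 ± 9.95 FPKM for Runx3, 38.8 ± 3.24 for Cbfb, 13.0 ± 0.642 for Runx1 and 10.4 ± 3.94 for Runx2 (SD, n = 3). Runx3 and Cbfb did not differ beyond their spread in either vector, and in both replicate 3 libraries Cbfb was the higher of the pair. Runx1 lay well below both in each library. Runx1 and Runx2 did not overlap with the empty vector but did with Blimp-1, where Runx2 exceeded Runx1 in replicate 1. Among all tested genes, Runx3 and Cbfb stood at the 83.8 and 82.7 percentiles of mean level, Runx1 at the 53.9 and Runx2 at the 40.5.

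The estimated reads behind these values, from transcript length and estimated depth, were about 1923 to 8867 per library for Runx3, 1777 to 5493 for Cbfb, 1229 to 3332 for Runx1 and 252 to 3810 for Runx2. The lowest number was that of Runx2 in empty vector replicate 3.

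The 2 vectors were compared to see which genes differ when Blimp-1 is added. Of the 4 genes, limma without a term for the replicate number called 0, against a background of 0% of the 10862 tested genes called as higher and 0% as lower at an adjusted p of 0.05, although 122 genes had an unadjusted p below 0.05. With the replicate number as a block it again called 0 of the 4, against 0.00921% of genes called as higher and 0.00921% as lower, and 2220 genes had an unadjusted p below 0.05. All 4 genes passed the filter of 1 FPKM in 3 libraries, each in all 6 libraries. Labels do not say whether a replicate number stands for one animal or culture, though they call the replicates independent. The means of 3 of the genes, Runx1, Runx3 and Cbfb, differed by less than the SD of either vector's replicates.

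Runx2 showed the largest difference of the 4. The ratio of Blimp-1 to empty vector FPKM was 1.60, 1.43 and 1.85 in replicates 1, 2 and 3, and the ratio of the means was 1.58. On the log2(FPKM + 1) scale, where changes at low FPKM come out too small, the differences were 0.62, 0.46 and 0.73. Runx2 was thus higher in 3 of 3 pairs, as were 22.9% of all tested genes, while 22.8% were lower in 3 of 3. Its log2 fold change of 0.61 had an SE of 0.36 without the block and 0.08 with it, with limma adjusted p of 0.998 and 0.142, and 99.7% of tested genes had a lower log2 fold change. Each vector's replicates ranged more widely than the pairs differed. The gap between the means, 6.60 and 10.4 FPKM, exceeded the SD of the empty vector (2.81) but not that of Blimp-1 (3.94). It was larger than the spread of the paired differences.

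With the block and without the replicate 3 pair, Runx2 was called as higher (log2 fold change 0.54, limma adjusted p = 0.000253), as were 4.98% of genes, with 6.23% called as lower. This fit has 4 libraries and 1 residual degree of freedom before the variance is shared over genes. Without the replicate 1 or the replicate 2 pair Runx2 was not called (limma adjusted p of 0.682 and 0.0655). In fits without the block, its log2 fold change was 0.27 without empty vector replicate 3 and 0.36 without Blimp-1 replicate 1.

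Runx3 had a log2 fold change of 0.13 (SE 0.23 without the block, 0.06 with it; limma adjusted p of 0.998 and 0.298). The pair differences were 0.19, 0.10 and 0.11 on the log2(FPKM + 1) scale, so it was higher with Blimp-1 in 3 of 3 pairs, by a FPKM ratio of 1.14, 1.07 and 1.08. In the fit without the block, leaving out only empty vector replicate 3, the lowest of the 6, turned the fold change to -0.06. Blimp-1 replicate 3, the next lowest at 31.5 FPKM, stayed in that fit. With the block and without the whole replicate 3 pair, the fold change of Runx3 was 0.14 (limma adjusted p = 0.211). Within each vector the range over replicates was several times the difference between the vectors.

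Runx1 and Cbfb each had a log2 fold change of 0.04, with limma adjusted p of 0.998 for both without the block and of 0.804 for Runx1 and 0.773 for Cbfb with it. The pair differences of Runx1 were 0.15, -0.11 and 0.07, and those of Cbfb were 0.05, 0.11 and -0.04. Both genes were higher in 2 of 3 pairs. None of the 4 genes had vectors that did not overlap, against 2.28% of tested genes higher and 2.34% lower without overlap, or 4.62% in either direction.

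**Figure D2:**
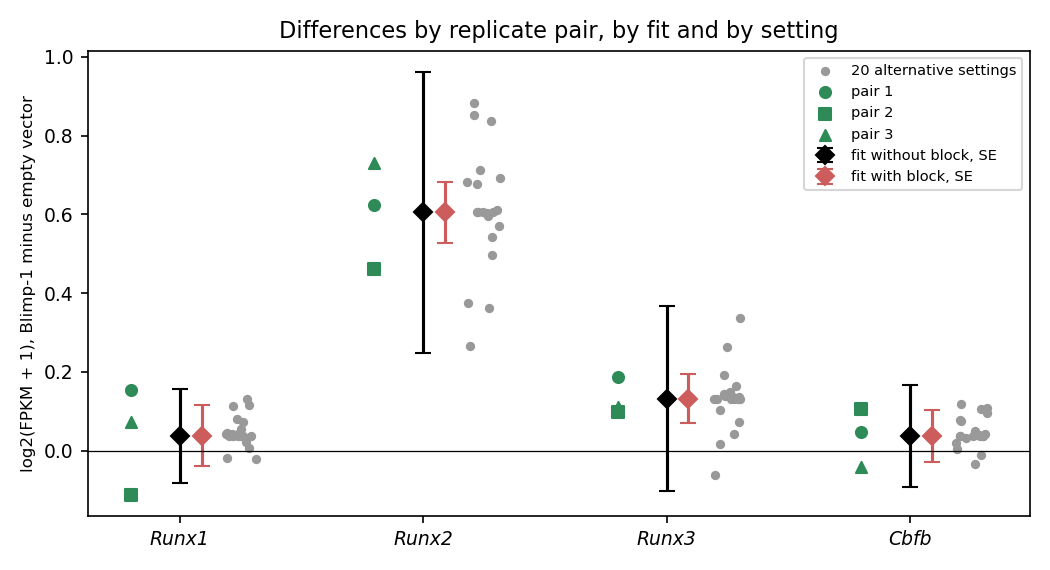
Difference in log2(FPKM + 1), Blimp-1 minus empty vector, of each gene by replicate pair (green symbols), in the fits without and with the replicate block (diamonds with SE) and under 20 alternative settings (grey dots, spread sideways for view). All Runx2 values are above 0, from 0.27 to 0.88 over the alternatives, and each of the other 3 genes has alternatives on both sides of 0.

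Transcripts of the 4 genes could be set against their start sites. In Runx1, the 2 transcripts from the distal start made up 97.6% to 99.3% of the summed FPKM in the 6 libraries, and the 2 that start about 129 and 130 kb further in made up 0.663% to 2.39%. The 1 Runx3 transcript in the table starts at the distal site, 7 bases from the RefSeq start, so its proximal form was not analysed here. In Cbfb all 4 transcripts begin within 271 bases of one another, and NM_001161458 made up 60.0% to 72.0% of the sum, followed by NM_022309 with 27.6% to 36.1%. The GENCODE release M21 start sites, on GRCm38, were used for this grouping.

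Within Runx1 the balance of the distal transcripts differed between the vectors. NM_001111021 made up 77.2%, 78.5% and 78.0% of the gene's FPKM in empty vector replicates 1, 2 and 3 and 83.9%, 84.4% and 82.4% in Blimp-1 replicates 1, 2 and 3. The vectors did not overlap, and the share was higher with Blimp-1 in 3 of 3 pairs, by 6.76, 5.82 and 4.44 percentage points. The means were 77.9% ± 0.684 and 83.6% ± 1.02 (SD, n = 3 each), so the difference was larger than the spread between replicates.

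The other distal transcript, NM_001111022, was at 2.57, 2.78 and 2.55 FPKM in the empty vector group and at 1.98, 1.86 and 2.30 FPKM with Blimp-1. All Blimp-1 libraries were lower than all empty vector libraries, with a ratio of means of 0.778, while NM_001111021 was at 9.89 ± 0.831 and 10.9 ± 0.412 FPKM (SD, n = 3 each) and its vectors overlapped. An exact permutation test of 3 against 3 cannot give a p below 0.10, and no test was made of this difference, which was singled out after its values were seen. Of 1767 tested genes with at least 2 transcripts at a mean of 1 FPKM or more, the share of the most abundant transcript did not overlap between the vectors in 2.89% as higher and in 6.11% in either direction, and 83 of the 108 genes without overlap differed by at least as many percentage points as Runx1. Both distal transcripts map to 1 GENCODE transcript, so the annotation used here does not show which exons set them apart, and such values are estimates from 50-cycle single reads.

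Runx2 differed from Runx1 in the estimated shares of its starts. Transcripts that begin about 78 kb inside the gene made up 99.7%, 64.5% and 64.2% of its FPKM in empty vector replicates 1, 2 and 3 and 96.3%, 63.5% and 70.9% in Blimp-1 replicates 1, 2 and 3. Both replicate 1 libraries stood apart from the other 4, with 0.301% and 3.74% from the first start, against 29.1% to 36.5%. In empty vector replicate 3, the first-start share was almost all the noncoding NR_073392 (34.0% of Runx2 FPKM, about 29.9 reads). That transcript was at 4.44e-09 FPKM in empty vector replicate 1 and at 1.19 FPKM in empty vector replicate 3. Such values are estimates from short reads split among overlapping transcripts, and the use of the starts was not tested. The coding first-start transcript NM_009820 made up 0.30%, 28.7% and 1.75% in empty vector replicates 1, 2 and 3 and 2.97%, 35.1% and 17.8% in Blimp-1 replicates 1, 2 and 3. By this transcript alone, empty vector replicate 3 was close to the replicate 1 libraries. Summed over the inner starts, Runx2 was at 8.93, 4.75 and 2.25 FPKM in the empty vector group and at 13.8, 6.67 and 4.58 FPKM with Blimp-1. Summed over the first start it was at 0.0269, 2.61 and 1.25 FPKM in the empty vector group and at 0.537, 3.84 and 1.88 FPKM with Blimp-1. Both sums were higher with Blimp-1 in 3 of 3 pairs, as was the whole gene, of which they are parts. Among all tested genes 22.9% were higher in 3 of 3 pairs. The first-start sum of empty vector replicate 1 was almost all NM_009820, with only about 2.87 reads.

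Of the 8 Runx2 rows, 5 had no symbol in the table. They held 55.7%, 49.4% and 84.4% of the Runx2 FPKM in empty vector replicates 1, 2 and 3 and 53.5%, 49.7% and 46.9% in Blimp-1 replicates 1, 2 and 3. Among them was NM_001271630, the most abundant Runx2 transcript by mean share, at 4.70, 2.70 and 1.24 FPKM in the empty vector group and 6.93, 4.66 and 1.96 FPKM with Blimp-1. The 3 rows that carried the symbol summed to 3.97, 3.73 and 0.546 FPKM in the empty vector group and to 6.67, 5.29 and 3.43 FPKM with Blimp-1. From these rows alone the log2 fold change of Runx2 was 0.85 and not 0.61, and it was again not called (limma adjusted p = 0.998).

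**Figure D3:**
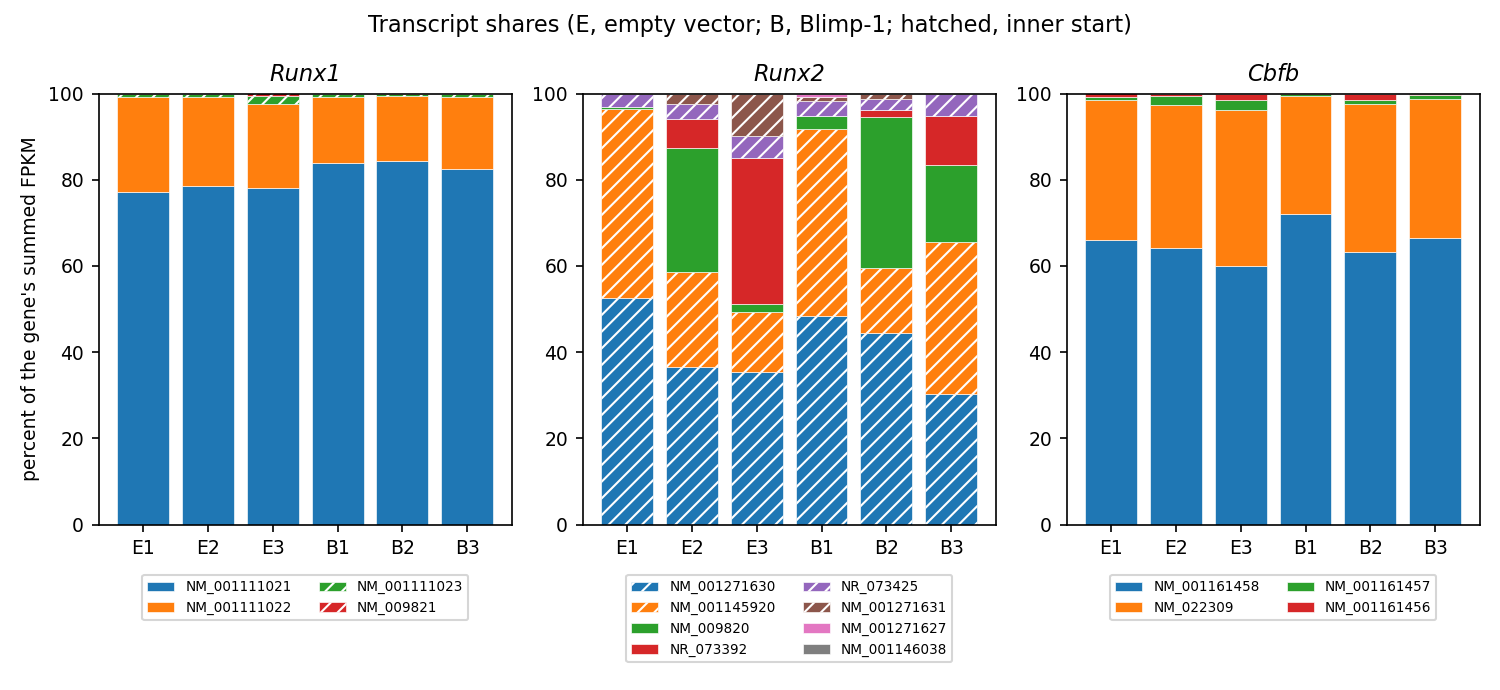
Percent of each gene's summed FPKM (vertical axes) by transcript for Runx1, Runx2 and Cbfb in empty vector (E1 to E3) and Blimp-1 (B1 to B3) replicates, with hatching for transcripts that start far inside the gene. The lower bar of Runx1 is taller in all 3 Blimp-1 libraries, and the Runx2 bars are almost fully hatched in both replicate 1 libraries.

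As the Runx proteins share 1 partner, the Runx genes were also summed. Together they were at 62.4, 67.1 and 45.6 FPKM in empty vector replicates 1, 2 and 3 and at 75.2, 72.5 and 51.7 FPKM in Blimp-1 replicates 1, 2 and 3. Divided by Cbfb FPKM this gave 1.84, 1.75 and 1.11 in the empty vector group and 2.14, 1.75 and 1.30 with Blimp-1. The ratio was above 1 in each library and lowest in both replicate 3 libraries, and the vectors overlapped. In replicate 2 the ratios of the vectors were nearly the same.

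Runx3 made up 63.9% to 69.0% of the summed Runx FPKM in the empty vector group and 61.0% to 68.4% with Blimp-1. Runx2 made up 14.3%, 11.0% and 7.67% in empty vector replicates 1, 2 and 3 and 19.1%, 14.5% and 12.5% in Blimp-1 replicates 1, 2 and 3, higher in 3 of 3 pairs with overlap between the vectors. The shares of Runx1 and of Runx3 were lower with Blimp-1 in 3 of 3 pairs. These shares add up to the whole, so they are not independent of each other.

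**Figure D4:**
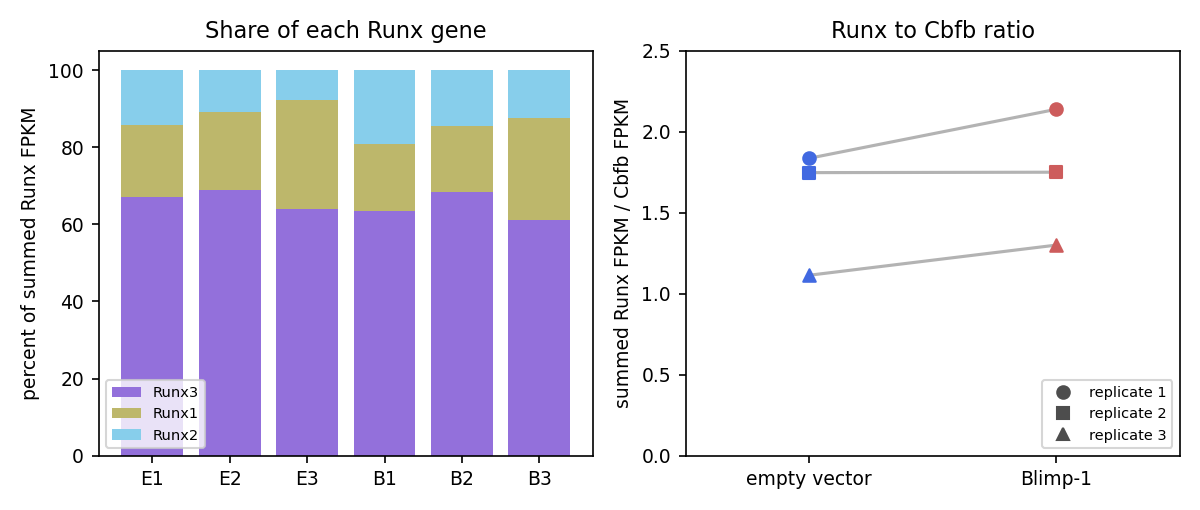
Left, percent of the summed Runx FPKM from each Runx gene in the 6 libraries (E1 to E3, empty vector; B1 to B3, Blimp-1). Right, summed Runx FPKM divided by Cbfb FPKM, with same-numbered replicates joined by lines. Runx3 takes between 61.0% and 69.0% in each library, and the ratio runs from 1.11 to 2.14.

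The cells carried the markers of CD4 T cells. All 9 T cell markers were tested, with summed levels of 2166 to 2518 FPKM in the empty vector group and 2126 to 2374 with Blimp-1. Cells that are known for high Runx3 were checked next. Cd8a, which defines CD8 T cells, was at 0.100 to 0.169 FPKM in the 6 libraries, and Cd8b1 was at 7.01 to 10.9. Of 5 NK cell markers, 2 were tested, Ncr1 was listed at 0 in each library, and the summed level was 3.34 to 28.4 FPKM in the empty vector group and 13.7 to 35.3 with Blimp-1. That sum was lowest in empty vector replicate 3, where Runx2 and Runx3 were also lowest, and nearly all of it was Klrd1, at 3.16 FPKM there. With the block and without the replicate 3 pair, the fit that called Runx2, Klrk1 was also called as higher (0.46, limma adjusted p = 0.0450). The part of this sum in the levels of Runx2 and Runx3 was not tested. Of the 6 B cell and 7 myeloid markers, 1 each was tested, Cd79b at 1.04 to 3.57 FPKM and Itgam at 0.336 to 1.32, with summed levels of at most 6.01 FPKM and 1.79 FPKM in the 6 libraries. Of 5 mast cell, megakaryocyte and red cell markers 1 was tested, Pf4 was listed at 0 in each library, and the sum was 3.67 to 19.8 FPKM in the empty vector group and 2.17 to 4.34 with Blimp-1. Most of the highest sum was Hba-a1, at 18.7 FPKM in empty vector replicate 3. Hba-a1 was lower with Blimp-1 in 3 of 3 pairs, by FPKM ratios of 0.329, 0.153 and 0.159. The fit that called Runx2 also called Hba-a1 (-1.04, limma adjusted p = 1.64e-05) and the T cell marker Thy1 (-0.26, limma adjusted p = 0.0120) as lower. Their part in the result for Runx2 was not tested.

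Genes whose products work with Runx were next described as lists, with no test of a list. Over all genes tested the median log2 fold change was -0.01. None of the members of the 4 lists below was called by limma over all 6 libraries, without or with the block. Calls with the block and without the replicate 3 pair are given beside them, and that fit called 4.98% of all genes as higher and 6.23% as lower. The vectors did not overlap in 1 of 16, 1 of 16, 0 of 16 and 1 of 15 tested members, in the order below. Among all tested genes this was 4.62%, so these counts are near the background.

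Of 17 genes for cofactors that bind Runx proteins, 16 were tested, with a median log2 fold change of 0.04. They include the Groucho repressors, histone deacetylases and histone acetyltransferases. Ncor1, a scaffold of histone deacetylase repressor complexes, was at 49.9 ± 9.58 FPKM in the empty vector group and 60.0 ± 10.7 with Blimp-1 (SD, n = 3 each; log2 fold change 0.27) and was higher in 3 of 3 pairs. It was called as higher with the block and without the replicate 3 pair (limma adjusted p = 0.0405). No other member of this list was called there, and 1 of 16 is near the background of 4.98% of genes as higher. With the block and without the replicate 1 or the replicate 2 pair, Ncor1 was not called (limma adjusted p of 0.71 and 0.145). Prmt1, an arginine methyltransferase that modifies Runx1, was at 34.6, 31.8 and 64.0 FPKM in the empty vector group and at 30.2, 33.0 and 34.6 with Blimp-1 (log2 fold change -0.34), a gap that came mainly from empty vector replicate 3. Tle3, a Groucho family corepressor that Runx proteins recruit through their last residues, had a log2 fold change of 0.09. Sin3a, a corepressor scaffold, had vectors that did not overlap, at 20.7 to 21.6 FPKM and 21.7 to 22.5 FPKM, and was named after its values were seen.

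Of 19 genes for enzymes and coactivators that modify Runx proteins or set their stability, 16 were tested, with a median of -0.00. Pim1, a kinase that can phosphorylate Runx proteins, was at 98.9, 99.7 and 163 FPKM in the empty vector group and at 87.2, 86.8 and 92.5 with Blimp-1. Its vectors did not overlap and empty vector replicate 3 was the highest library (log2 fold change -0.40, limma adjusted p of 0.205 with the block). Hipk2, another kinase, had a log2 fold change of 0.29. With the block and without the replicate 3 pair 2 of the 16 were called, near the background of 4.98% of genes as higher and 6.23% as lower. These members, named after their values were seen, were Cdk6 as higher (0.37, limma adjusted p = 0.0153) and Cdk1 as lower (-0.30, limma adjusted p = 0.0159). With the block and without the replicate 1 pair, neither was called (limma adjusted p of 0.98 for Cdk6 and 0.728 for Cdk1). Without the replicate 2 pair neither was called (limma adjusted p of 0.425 and 0.502). Cdk6 went the other way in the replicate 3 pair (-0.69), and its fold change over all 6 libraries was 0.02.

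Of 17 genes for transcription factors that act with Runx in T cells, 16 were tested, with a median of 0.09. Foxp3 did not reach the filter. Ets1, which binds DNA together with Runx1 at T cell enhancers, was at 144, 261 and 118 FPKM in the empty vector group and at 142, 244 and 149 with Blimp-1. Replicate 2 was the highest in both vectors, and the fold change of 0.07 rested on the replicate 3 pair. Gata3, the Th2 factor, had a log2 fold change of -0.16, and Bcl11b, which keeps the T cell identity, of 0.08. Myb, a factor of T cell precursors, was higher in 3 of 3 pairs with differences of 0.10, 0.27 and 0.93, most of it in replicate 3. No member of this list had vectors that did not overlap or was called without the replicate 3 pair.

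Of 25 genes reported as controlled by Runx in T cells, 15 were tested, with a median of 0.06. The other 10 did not reach the filter, among them Ifng and Prf1 of the Th1 and cytotoxic programme and Il2, Il3 and Il4. Cd4, the classical target of Runx silencing, was at 279, 335 and 217 FPKM in the empty vector group and at 301, 310 and 304 with Blimp-1, with overlap between the vectors. Zbtb7b, the factor that opposes Runx3 in the choice of the CD4 lineage, was at 35.8 ± 2.89 FPKM and 35.6 ± 1.93 (SD, n = 3 each), a difference well below the spread between replicates.

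Ccl5, a chemokine gene, was the member of this list with the highest log2 fold change. It was at 14.4, 14.4 and 6.57 FPKM in empty vector replicates 1, 2 and 3 and at 27.8, 35.5 and 20.3 FPKM in Blimp-1 replicates 1, 2 and 3. The vectors did not overlap (log2 fold change 1.21, SE 0.32), and it was not called over all libraries (limma adjusted p of 0.998 without and 0.142 with the block). Ccnd3, the cyclin D3 gene, was lower with Blimp-1 in 3 of 3 pairs (log2 fold change -0.41). With the block and without the replicate 3 pair, 3 of the 15 tested members were called as higher, against 4.98% of all genes. No member was called as lower. Those called included Ccl5 (1.07, limma adjusted p = 7.94e-08) and Cdkn1a, the p21 cell cycle inhibitor gene (0.30, limma adjusted p = 0.0215). With the block and without the replicate 1 pair, neither was called (limma adjusted p of 0.107 for Ccl5 and 0.682 for Cdkn1a). Without the replicate 2 pair neither was called (limma adjusted p of 0.0539 and 0.368). Cdkn1a was named after its values were seen.

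**Figure D5:**
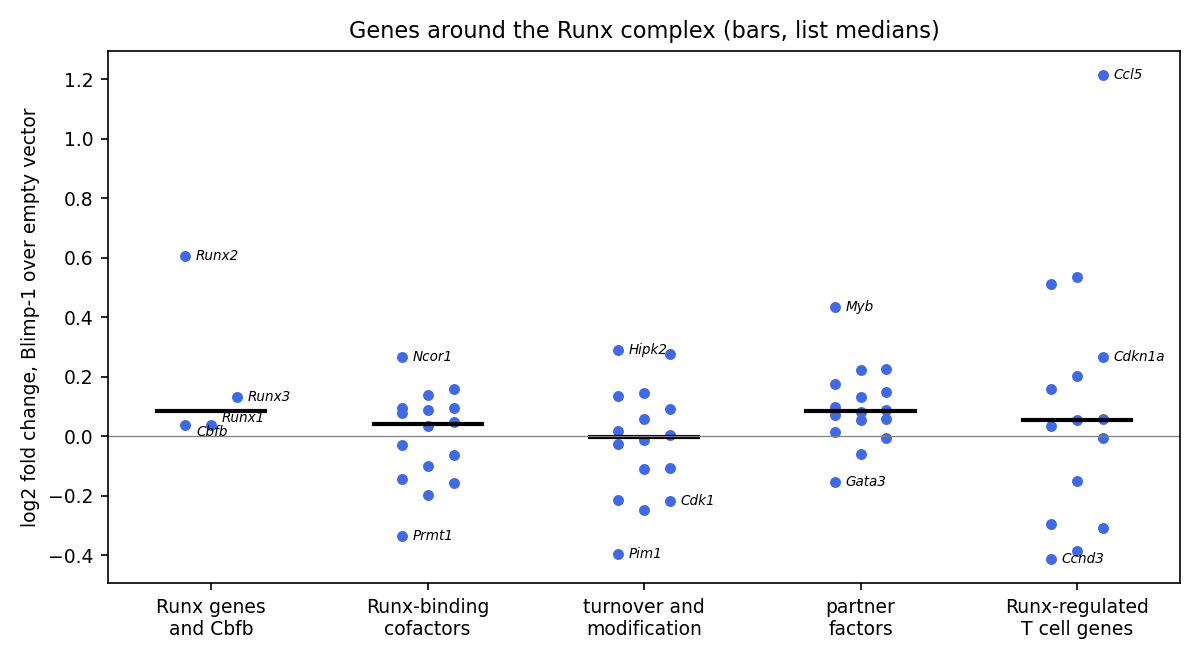
Log2 fold change, Blimp-1 over empty vector (vertical axis), of the Runx genes and Cbfb and of the tested members of 4 lists of genes around them (points, spread sideways for view; bars, medians). Runx2 (0.61) and Ccl5 (1.21) stand above the other members of their columns, and the list medians lie between -0.00 and 0.09.

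The genes most like each of the 4 in pattern were sought among 7846 tested genes with a mean of 5 FPKM or more, by Pearson correlation of log2(FPKM + 1) over the 6 libraries. For Runx3 these were Etv6 (r = 0.9998), which encodes an ETS family repressor, and Sirt2 (r = 0.995), and 574 genes had an r above 0.9. Etv6 was at 14.8, 17.2 and 8.35 FPKM in the empty vector group and at 17.9, 18.9 and 9.37 with Blimp-1, low in both replicate 3 libraries as Runx3 was. For Runx2 they were Exoc4 (r = 0.999) and Tm7sf3 (r = 0.999), with 521 genes above 0.9. For Runx1 they were Taf4 (r = 0.956) and Zfp954 (r = 0.951), with 6 genes above 0.9.

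For Cbfb they were Atp6v0c-ps2 (r = 0.979) and Smim27 (r = 0.976), with 44 genes above 0.9. Atp6v0c-ps2 is a pseudogene at 0.000620 to 62.7 FPKM whose reads may have been split with a near-identical copy, so its pattern is uncertain. With 6 libraries and 7846 genes, high correlations are common, and libraries of the same number share more than the vector. The correlations are given as a description only.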

How the data were processed

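Per the labels' protocols, about 0.5 M sorted GFP+ cells gave 2 ug of total RNA for TruSeq libraries, read single end for 50 cycles. The authors deposited 1 table of FPKM per transcript and library. Tools and a build listed in the submitters' processing notes are CASAVA 1.8.2, Cufflinks 2.2, Partek 6.6 and mm9, in no stated role or order. Aligner, annotation release, strand setting and filters: not given in the sources used here.

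Transcripts were named by accession from RefSeq (GRCm38.p6, names only; 29310 matched, 430 by symbol, 110 kept theirs, 18 had none) and summed per gene. Reads of overlapping or near-identical genes may have been split between them. Depth was estimated from the modal FPKM times length of 1 read over genes with 1 transcript longer than 1000 bases. The filter kept genes that reached 1 FPKM in 3 or more libraries. On log2(FPKM + 1), limma 3.58.1 (R 4.3.3) compared the vectors, two-sided and with a variance trend, and p-values were adjusted over all tested genes by Benjamini-Hochberg, with a threshold of 0.05. On simulated data, the fits of all 6 libraries, without and with the block, returned mean log2 fold changes close to those put in. Fits with libraries or pairs left out were not simulated. P-values measure only the spread between these samples.

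Both vectors have replicates numbered 1 to 3. Libraries of the same number deviated together from their vector's mean (r of 0.798, 0.808 and 0.701 over genes), so the numbers were taken to pair them in a second fit with a replicate block. The pairing comes from the values, not the labels.

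Members and lists were chosen with earlier results of these data known. From each list, called genes were named or, failing those, the largest rise and fall at 5 FPKM or more, plus Cd4, Zbtb7b, Ets1, Gata3, Bcl11b and Tle3. Each member's 2 most correlated genes were also named, leaving out predicted genes. Alternatives were 2 pseudocounts, 2 filters, 2 scalings, no trend, array weights, the block, libraries and pairs left out, the most abundant transcript and, added after seeing the data, the deposited symbols alone. A list member is not reported here.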

Additional observations from a re-analysis of the deposited data

How the results depend on the processing

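The call counts and the named genes were recomputed under 20 alternatives. Counts were 0 higher and 0 lower in the fit without the block. There was 1 higher gene with median-ratio rescaling and with array weights, and 1 higher and 1 lower with the replicate block. Leaving out 1 library without the block gave 0 to 1 higher (the 1 without empty vector replicate 2) and 0 lower. The block with a pair left out gave 1 higher and 2 lower without replicate 1, 3 and 6 without replicate 2, and 541 and 677 without replicate 3.

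Of the 4 genes, only Runx2 kept its direction in all 20 alternatives (0.27 to 0.88). It was called only with the replicate block without replicate 3 (0.54). With 1 library left out, Runx1 ran from -0.019 to 0.080, the lowest without empty vector replicate 1, and it was -0.020 with the block without replicate 1. Cbfb ran from -0.035 to 0.10 and was below 0 without empty vector replicate 1 or Blimp-1 replicate 2 (-0.011). Runx3 ran from -0.061 to 0.34 and was below 0 only without empty vector replicate 3. With the block and without the whole replicate 3 pair it was 0.14. The replicate block changed no call of a named gene over all 6 libraries other than that of Prdm1 (log2 fold change 2.26, limma adjusted p of 0.0569 without and 0.00507 with it).

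With 1 library left out, 10 other named genes changed sign: Bcl11b (-0.12 to 0.29), Cd4 (-0.0057 to 0.31), Cdk1 (-0.63 to 0.13), Cdk6 (-0.22 to 0.20), Cdkn1a (-0.060 to 0.65), Ets1 (-0.18 to 0.40), Gata3 (-0.30 to 0.0074), Hipk2 (-0.073 to 0.58), Tle3 (-0.14 to 0.29) and Zbtb7b (-0.039 to 0.059). The block without replicate 1 turned Cdk6 (-0.037) and Zbtb7b (0.0095), that without replicate 2 Cdk6 (-0.28) and Zbtb7b (0.033), and that without replicate 3 Bcl11b (-0.047), Cd4 (-0.0028) and Ets1 (-0.061). Zbtb7b also turned with median-ratio rescaling (0.00090), quantile normalization (0.020) and array weights (0.015), and Cdk6 (-0.0073) and Cdkn1a (-0.12) with array weights. The cause was not tested. Runx2 in empty vector replicate 3, with about 252 reads, is the value most limited by depth.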
